A study of Mus musculus with 2 samples.

Results

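Claudins and connexins were examined as the membrane proteins that build the tight junction and the gap junction. The members were taken by gene name, as every gene called Cldn followed by a number or Gja, Gjb, Gjc, Gjd or Gje followed by a number on the array. This rule used no measured value and found 45 of 24323 named genes, of which 25 were claudins and 20 were connexins. They were read by 51 probes on 60 spots. RNA came from the tooth and from the skin of wild-type (WT) mice at postnatal day 0 (P0), with 1 array for each tissue. Neither tissue carried a mutation or a treatment, and the study's methods name C57BL/6J as its wild type. The labels give no sex or number of pooled animals. Both arrays lay on 1 slide and were labelled with the same dye. The study compared the tissues because teeth lacking Sox21, a transcription factor, grow ectopic hairs, and it asked whether their cells had changed fate.

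A claudin spans the membrane several times and binds claudins of the neighbouring cell, which closes the space between epithelial cells. Some claudins seal this space, whereas others form pores in it that pass selected ions or water. Connexins assemble into a ring that docks with the ring of the next cell, and ions and small metabolites then pass from cell to cell. In the epidermis claudins of the granular layer are part of the water barrier and several beta connexins are expressed in keratinocytes, and inherited defects in some of these connexins cause skin disease and deafness. In the tooth, ameloblasts form junctional complexes near both of their ends, and Gja1 has a known role in enamel formation.

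The values are log2 of the processed signal relative to the 75th percentile of all non-control probes on the same array, so that a level of 0 lies at that percentile. A difference is skin minus tooth, and a positive value means a higher signal in skin. The 75th percentile stood at a signal of 428 in tooth and 276 in skin, and 56.7% and 52.5% of the 55675 probes passed the extraction software's call of well above background. A gene is called measured on an array where its probe was well above background. No spot was saturated. Because each tissue was represented by 1 array, differences could not be tested and have no replicate check. The ± beside a signal is the error that the extraction software gave for that spot, and it leaves out all variation between animals, dissections and RNA preparations. For the members measured on both arrays this error gave the difference an uncertainty of 0.20 to 0.40 (log2). Levels of different genes are not compared, since each probe binds with its own strength. A summed level adds the levels of a gene list before log2 is taken, so bright probes weigh most in it. In whole tissue, fewer cells of a type and less RNA per cell cannot be told apart, which holds for each difference given here.

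The labels matched the defining genes of both tissues. All 6 ameloblast markers were well above background in tooth, while Klk4 alone was so in skin. The 6 markers of the upper epidermis were well above background in skin with a summed level of 11.98 (log2), compared with 2.90 in tooth, where involucrin (Ivl) was not well above background. The 5 genes shared by both epithelia (Krt5, Krt14, Cdh1, Epcam and Trp63) had summed levels of 9.11 in tooth and 10.05 in skin, most of it from Krt5. Their single differences ran from 0.06 for Cdh1 to 1.19 for Krt14. The tooth sample also held upper-epidermis markers. Of 4 oral mucosa keratins, Krt4 and Krt76 were well above background in tooth only, Krt13 was higher in skin by 2.36 (log2) and Krt6a differed by -0.36, with summed levels of 4.09 in tooth and 6.00 in skin. The part of other epithelia in the values below was not tested.

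Of the 45 members, 24 were well above background on both arrays, 10 in tooth only, 2 in skin only and 9 on neither. Among all named genes, 5.75% were well above background in tooth only and 3.04% in skin only. The skin array reached less far down after scaling, as its lowest signal called well above background was -3.73 (log2), compared with -4.52 in tooth. The lenient call, significantly above background, was met in skin by 7 of the 10 members of the tooth-only class. The tooth-only class held 7 claudins (Cldn2, Cldn6, Cldn11, Cldn17, Cldn19, Cldn20 and Cldn22) and included the connexins Gja10 and Gjc3, and the skin-only pair was Cldn3 and Gjb5.

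At least 1 array measured 20 of the claudins well above background. Of these, 5 stood higher in skin by at least 2-fold, 9 stood higher in tooth by as much and 6 were within 2-fold. The 17409 named genes that met the same condition gave 14.2% toward skin and 15.5% toward tooth. The median difference of the claudins was -0.48 (log2), compared with -0.04 over all these genes. It became 0.10 when each dim value was raised to the lowest level that could be called well above background, so its sign rested on genes not well above background in skin. Of the 12 claudins measured on both arrays, 4 passed 2-fold toward skin and 3 toward tooth, and the shares over the 15271 genes measured on both arrays were 11.4% and 12.3%.

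**Figure D1:**
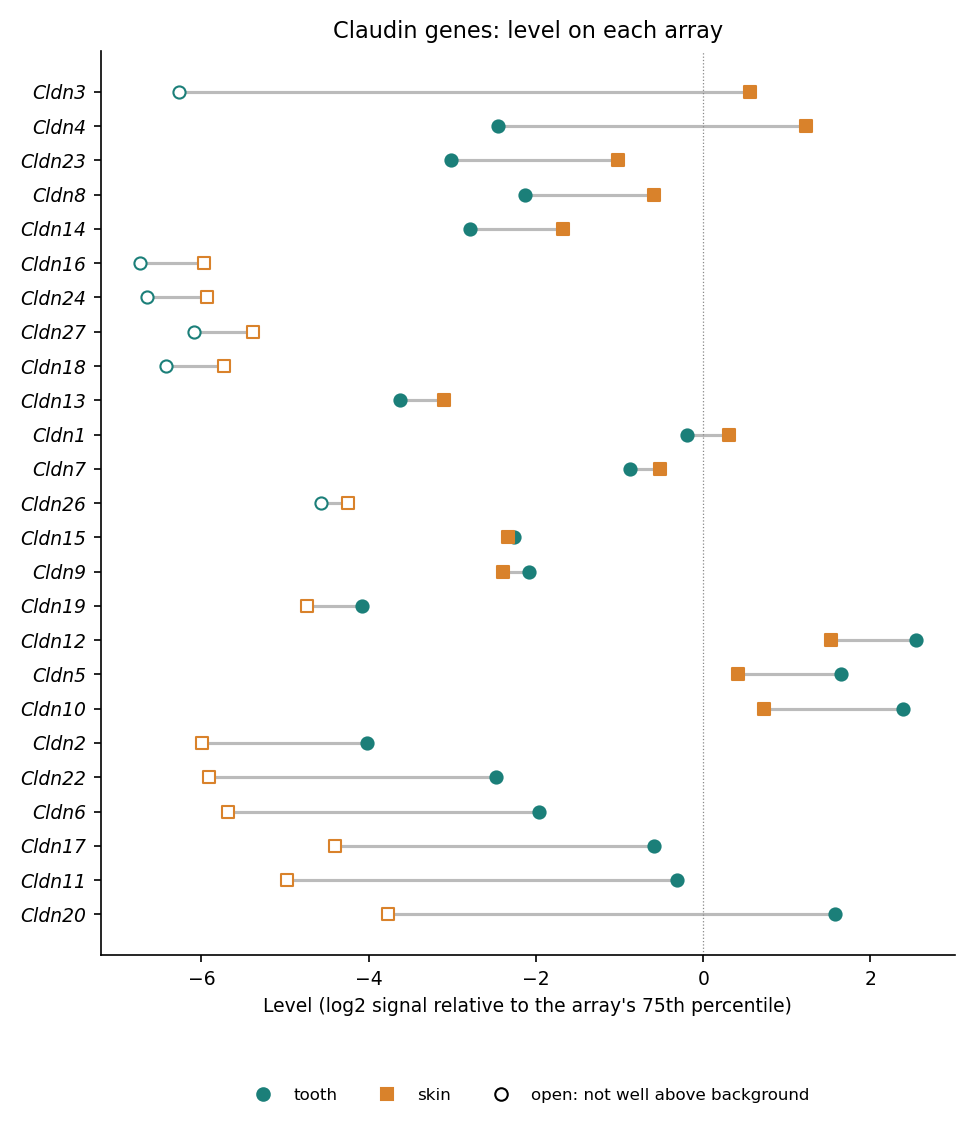
Level of each claudin gene on the tooth array (circles) and the skin array (squares), in log2 units relative to the 75th percentile of that array, ordered by the difference. Open symbols were not well above background, rows are single probes whose levels cannot be set against each other, and Cldn3 and Cldn20 mark the opposite ends of the order.

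Cldn3 and Cldn4 showed the largest differences toward skin among the claudins. Both are claudins of many epithelia and share a bacterial toxin as a ligand. The Cldn3 probe (mm9 chr5:135463284-135463342) gave a signal of 5.56 ± 4.28 in tooth and 408 ± 41.1 in skin. The tooth signal was not well above background, which gives the skin level a bound of at least 33.8-fold, whereas normexp background correction gave a smaller difference of 3.26 (log2). The Cldn4 probe (chr5:135421347-135421406) gave 78.2 ± 9.38 in tooth and 650 ± 65.2 in skin, with levels of -2.45 and 1.23. The difference of 3.69 is a 12.9-fold higher level in skin, and the other Cldn4 probe gave 2.80. These genes are next to each other on chromosome 5. Another claudin of that region, Cldn13, which lies 1 gene away from Cldn4, differed by 0.52 and was close to background on both arrays. Cldn3 overlaps Wbscr25, a gene with its own probe on the array, which differed by 0.08.

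The other claudins higher in skin were Cldn23, Cldn8 and Cldn14. For Cldn23 the levels were -3.02 in tooth and -1.02 in skin, a 4.01-fold higher level there. Cldn8, a claudin known from the collecting duct of the kidney, had levels of -2.13 and -0.59, a difference of 1.54 that became 0.91 under scaling to the spike-in transcripts. Cldn14 is needed in the inner ear, and its levels were -2.79 and -1.67. Its difference of 1.12 was below 2-fold under 4 of the 9 processing alternatives, so that Cldn14 stood at the threshold.

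Toward tooth, the largest bound was that of Cldn20 (chr17:3533154-3533213), a claudin about which little is known. Its signal was 1276 ± 128 in tooth and 20.3 ± 5.61 in skin, and the tooth level was at least 39.6-fold higher under the background subtraction of the extraction software. Cldn20 overlaps Tfb1m, a gene on the opposite strand that encodes a mitochondrial ribosomal RNA methyltransferase. Tfb1m itself was at 0.66 in tooth and at 0.73 in skin and so differed by 0.06. Cldn11 (chr3:31062922-31062981), the claudin of myelin and of the Sertoli cell barrier, gave 343 ± 34.6 in tooth and 8.79 ± 4.61 in skin, a tooth level higher by at least 10.65-fold. Cldn17 (chr16:88506183-88506242), an anion pore, gave 285 ± 28.8 and 13.1 ± 4.80, with a bound of 8.83-fold. Normexp background correction gave smaller differences than these bounds, at -3.35 for Cldn20, -1.96 for Cldn11 and -1.61 for Cldn17 (log2). All 3 signals in skin were significantly above background by the lenient call, although they missed the stricter one.

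Smaller bounds toward tooth were found for Cldn6 and Cldn22. Cldn6, a claudin of embryonic epithelia, had a tooth level of -1.96 and a bound of 3.42-fold, and Cldn22 had -2.48 and a bound of 2.38-fold. Under normexp background correction the differences of Cldn6 and Cldn22 shrank to -0.66 and -0.63. Cldn2, a cation and water pore, and Cldn19, a claudin of the kidney, were near background in tooth (levels of -4.02 and -4.08), and the bound gave no fold. For Cldn2 the difference of -1.97 became 0.29 with the dim value at its bound.

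Cldn10, Cldn5 and Cldn12 were measured on both arrays and were higher in tooth. Cldn10 forms ion pores, and its probe (chr14:119273459-119273518) gave 2249 ± 225.0 in tooth and 455 ± 45.8 in skin. Its levels were 2.39 and 0.72, a 3.19-fold higher level in tooth. Cldn5, the main claudin of endothelial cells, had levels of 1.64 and 0.41, a difference of -1.23 or 2.35-fold. Cldn12, which lacks the tail motif that binds scaffold proteins in most claudins, had levels of 2.54 and 1.53. Its difference of -1.02 was close to the threshold, and quantile normalization gave -0.99.

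Part of the endothelial genes had the direction of Cldn5. Of 7 endothelial markers, 5 were at least 2-fold higher in tooth (Cdh5 with -2.70, Tie1 with -2.22, Tek with -2.08, Emcn with -3.10 and Esam with -2.49), whereas Pecam1 and Kdr differed by 0.50 and 0.43. The summed level of the list was 5.13 in tooth and 5.28 in skin, most of it from Kdr. All 7 were well above background in tooth and 6 in skin, where Tek was not. The part of vessels in the values of Cldn5 was not tested. Schwann cell markers had summed levels of 4.27 in tooth and 3.53 in skin. Their members went both ways, from -2.39 for S100b to 3.21 for Sox10, and the part of Schwann cells in the claudin values was not tested.

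Another 5 claudins differed little. Cldn1, the claudin without which newborn mice lose water through the skin, gave 373 ± 37.6 in tooth and 341 ± 34.5 in skin. Its levels were -0.20 and 0.31, a difference of 0.50. Cldn7 differed by 0.35, Cldn15 by -0.08, Cldn9 by -0.32 and Cldn13 by 0.52. The other Cldn7 probe stayed near background in both tissues. Neither array measured Cldn16, Cldn18, Cldn24, Cldn26 or Cldn27 well above background, and RefSeq now names the last pair Tmem114 and Tmem235. By role, the 6 measured of 7 sealing claudins (Cldn1, Cldn3, Cldn5, Cldn11, Cldn14, Cldn18 and Cldn19) had a median of -0.07 (0.43 with dim values at their bound), with 2 past 2-fold in each direction. The 4 measured of 5 channel claudins (Cldn2, Cldn10, Cldn15, Cldn16 and Cldn17) had a median of -1.82, with 3 past 2-fold toward tooth and 0 toward skin. With dim values at their bound this median was -0.88 and 2 genes, Cldn10 and Cldn17, were past 2-fold. Over all named genes measured in either tissue the shares were 14.2% toward skin and 15.5% toward tooth. Cldn2 and Cldn17 entered the measured channel claudins through the tooth array alone, and no difference between the roles was tested. Claudins given no role here are in neither list, among them Cldn4 and Cldn8 toward skin and Cldn6 and Cldn20 toward tooth.

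Promoters of 4 claudins that stood far apart are shown to let the sequences of genes higher in skin be read beside those of genes higher in tooth. Each is the 250 bases before the RefSeq transcription start (GRCm38.p6), written 5′ to 3′ on the strand of the gene. Capitals mark a TATA box (TATAAA), a GC box (GGGCGG), an AP-1 site (TGANTCA) or an AP-2 site (GCCNNNGGC), searched on both strands.
Cldn3: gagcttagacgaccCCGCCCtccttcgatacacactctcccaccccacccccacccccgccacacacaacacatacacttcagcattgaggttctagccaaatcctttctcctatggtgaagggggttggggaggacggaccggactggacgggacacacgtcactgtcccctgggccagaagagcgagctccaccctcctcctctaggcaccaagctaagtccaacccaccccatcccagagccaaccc
Cldn4: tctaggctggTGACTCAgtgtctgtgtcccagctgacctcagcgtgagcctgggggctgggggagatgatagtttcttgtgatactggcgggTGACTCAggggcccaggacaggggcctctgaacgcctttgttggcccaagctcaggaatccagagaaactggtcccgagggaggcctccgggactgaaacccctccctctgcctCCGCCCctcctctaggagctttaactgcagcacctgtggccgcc
Cldn11: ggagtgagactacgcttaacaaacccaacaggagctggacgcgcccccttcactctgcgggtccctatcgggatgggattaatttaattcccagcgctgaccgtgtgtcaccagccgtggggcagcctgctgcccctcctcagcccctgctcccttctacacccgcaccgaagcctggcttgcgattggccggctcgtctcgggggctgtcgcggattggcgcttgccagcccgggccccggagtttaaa
Cldn17: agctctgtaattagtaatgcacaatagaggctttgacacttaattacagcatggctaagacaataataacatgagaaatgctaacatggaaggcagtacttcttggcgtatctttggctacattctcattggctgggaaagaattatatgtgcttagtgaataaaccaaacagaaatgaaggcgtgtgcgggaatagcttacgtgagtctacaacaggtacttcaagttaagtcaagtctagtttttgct
The windows are chr5:134985964-134986213 (plus strand) for Cldn3, chr5:134946935-134947184 (minus) for Cldn4, chr3:31149670-31149919 (plus) for Cldn11 and chr16:88506979-88507228 (minus) for Cldn17.

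Cldn4, higher in skin, held 2 AP-1 letter matches, with their first base 240 and 158 bases before the start, and a GC box at 44. Cldn3, also higher in skin, held a GC box at 236 and no AP-1 match. In Cldn11 and Cldn17, both higher in tooth, none of the 4 motifs was found. Other claudins higher in tooth did hold matches, with 3 GC boxes in 1 window of Cldn10, 2 in Cldn6 and 1 in Cldn5, so the windows printed do not stand for a direction. The share of G and C was 60.8% in Cldn3, 62.0% in Cldn4, 63.6% in Cldn11 and 38.4% in Cldn17, compared with a median of 52.4% over all 32851 promoters of the table. A TATA box was present in 12.4% of those promoters, a GC box in 32.7%, an AP-1 site in 6.75% and an AP-2 site in 13.7%. The table held 44 windows of 32 member genes, and 5, 18, 3 and 6 of them held the 4 motifs in that order. These shares of 11.4%, 40.9%, 6.82% and 13.6% stood beside those over all promoters with no test, as several windows belong to 1 gene. A match in letters does not show that a factor binds there.

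Connexins were found on both sides, with beta members toward skin and alpha members toward tooth among those described. The 16 connexins with a measured level in either tissue comprised 6 past 2-fold toward skin, 5 past 2-fold toward tooth and 5 within it, against the same background of 14.2% and 15.5%. Their median difference was -0.04 (log2), and 0.13 with dim values at their bound. The beta connexins Gjb2, Gjb5 and Gjb6 were at least 2-fold higher in skin, whereas Gjb1 was within 2-fold. In contrast, the alpha connexins Gja1, Gja4 and Gja5 were at least 2-fold higher in tooth, Gja4 no longer so under normexp correction and Gja5 no longer so by the mean over its probes.

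**Figure D2:**
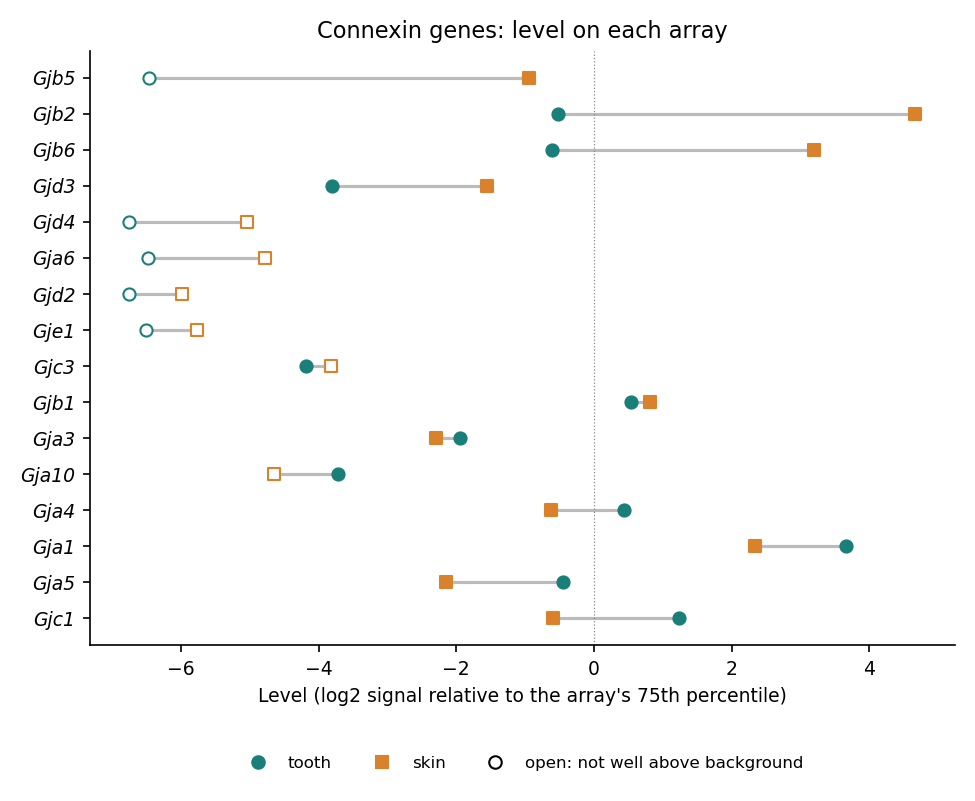
Level of 16 connexin genes on the tooth array (circles) and the skin array (squares), in log2 units relative to the 75th percentile of that array, ordered by the difference. Open symbols were not well above background, and the beta connexins Gjb5, Gjb2 and Gjb6 at the top had the widest gaps, with skin to the right.

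Gjb2, Gjb6 and Gjb5 stood far toward skin. Gjb2 (chr14:57717629-57717688), which encodes Cx26, gave a signal of 296 ± 30.1 in tooth and 7029 ± 703 in skin. Its levels were -0.53 and 4.67, and the difference of 5.20 corresponds to a 36.7-fold higher level in skin. A difference of 16-fold or more toward skin was reached by 1.57% of all genes measured on both arrays, and 131 of these 15271 genes, Gjb2 included, were at least as far apart as Gjb2. The study lists Gjb2 among transcripts raised in teeth lacking Sox21 and gives these arrays' own ratios next to it, so its direction is not independent evidence.

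The Gjb6 probe (chr14:57742226-57742285), for the gene of Cx30, gave 282 ± 28.4 in tooth and 2531 ± 253 in skin. Its levels were -0.60 and 3.20, a 13.9-fold higher level in skin. Gjb5 (chr4:127032053-127032112) gave 4.84 ± 4.85 in tooth, not distinguished from background by either call, and 143.0 ± 15.3 in skin. The skin level was at least 11.8-fold higher, whereas normexp correction gave a smaller difference of 2.22 (log2). Gjb1, the connexin of liver and of myelinating Schwann cells (Cx32), differed little, with 620 ± 62.1 and 484 ± 48.6. Its levels of 0.53 and 0.81 differed by 0.27, and the sign of this difference changed under spike-in scaling.

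**Figure D3:**
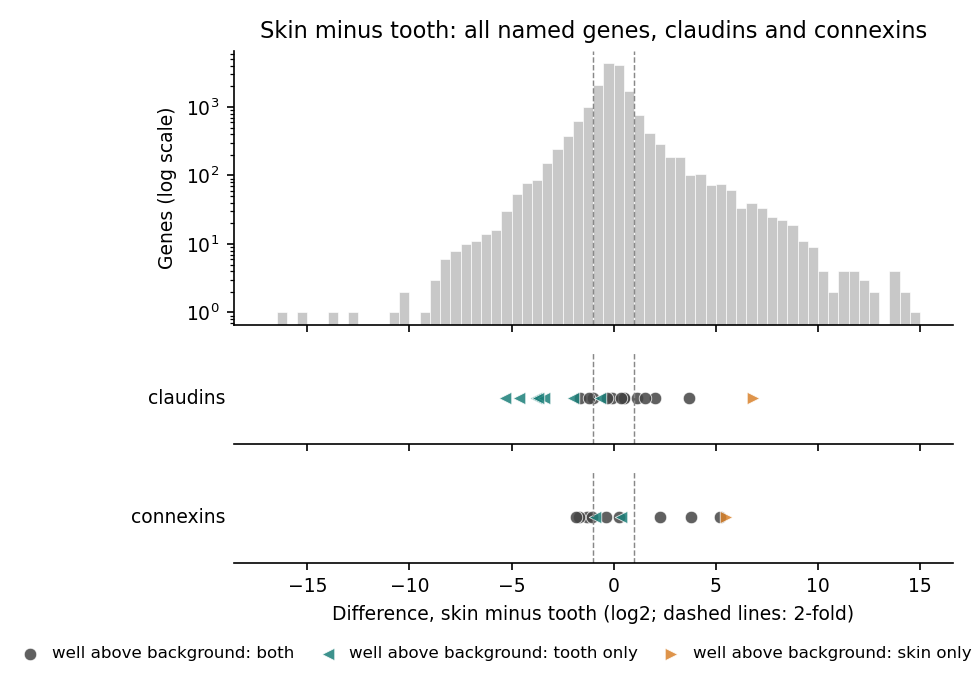
Differences between skin and tooth (log2) as a histogram of all 17409 named genes measured well above background in either tissue, with the number of genes on a log scale, and below it measured claudins and connexins. Circles were measured on both arrays and triangles on 1 array, dashed lines mark 2-fold, and Gjb2 and Gjb5 lie beyond 5 toward skin among the connexins drawn.

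Among the alpha connexins Gja1 had the best support from repeated spots. Gja1 encodes Cx43, the most widely expressed connexin, and was printed on 10 spots, 9 of which were used on each array. Its mean signal was 5416 ± 542 in tooth and 1393 ± 139 in skin, and the SD among spots was 0.06 and 0.05 (log2). The levels of 3.66 and 2.33 differed by -1.33, a 2.51-fold higher level in tooth. This was beyond the SD of 0.12 that spot scatter alone gives a difference between arrays, although variation between animals is not part of it. Gja1 kept at least 2-fold under every alternative run.

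Gja4 and Gja5 encode the connexins of arterial endothelium, Cx37 and Cx40. Gja4 had levels of 0.43 and -0.63 and a difference of -1.06, which was -0.82 under normexp correction. Gja5 had levels of -0.45 and -2.14 and a difference of -1.70 by the probe that stood for it. Its other probes gave 0.53 and -0.12, and the mean over its 3 probes was -0.43, so that the direction of Gja5 depended on the probe. The endothelial markers given for Cldn5 stood beside these connexins too, and their part was not tested. The lens connexin Gja3 had levels of -1.94 and -2.30 and a difference of -0.36, which changed sign under normexp correction. Gja10, a connexin known from retinal horizontal cells, was one of the tooth-only members, with a bound of 1.01-fold. Under normexp correction its difference was 0.25, toward skin. Neither array measured Gja6 well above background.

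The gamma, delta and epsilon connexins were mixed. Gjc1, the gene of Cx45, which acts in the heart and in smooth muscle, gave 1012 ± 101 in tooth and 183 ± 19.1 in skin. Its levels of 1.24 and -0.59 differed by -1.83, a 3.56-fold higher level in tooth and the largest toward tooth among connexins measured on both arrays. Gjc3 passed the background call in tooth only, although after scaling its level was lower there (-4.18 and -3.82), so it has no fold. Gjd3 stood at -3.81 in tooth and -1.55 in skin, a 4.79-fold higher level in skin. Its difference of 2.26 was 1.19 under normexp correction. Gjd2, the connexin of neuronal electrical synapses, Gjd4 and Gje1 were measured by neither array.

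The promoters of the beta connexins Gjb2, Gjb6 and Gjb5 are shown because these genes had the same direction. RefSeq places Gja3, Gjb2 and Gjb6 side by side on chromosome 14, while Gjb5 lies on chromosome 4. The windows and capitals are as for the claudins.
Gjb2: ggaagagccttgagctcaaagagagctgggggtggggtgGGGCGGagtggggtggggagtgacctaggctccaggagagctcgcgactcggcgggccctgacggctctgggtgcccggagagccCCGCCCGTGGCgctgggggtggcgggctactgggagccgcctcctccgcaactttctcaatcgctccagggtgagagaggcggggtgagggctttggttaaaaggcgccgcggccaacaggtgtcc
Gjb6: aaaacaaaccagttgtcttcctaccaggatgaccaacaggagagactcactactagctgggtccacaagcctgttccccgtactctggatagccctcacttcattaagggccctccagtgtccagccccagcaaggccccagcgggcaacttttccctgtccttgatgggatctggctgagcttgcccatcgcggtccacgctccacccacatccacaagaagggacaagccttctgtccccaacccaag
Gjb5: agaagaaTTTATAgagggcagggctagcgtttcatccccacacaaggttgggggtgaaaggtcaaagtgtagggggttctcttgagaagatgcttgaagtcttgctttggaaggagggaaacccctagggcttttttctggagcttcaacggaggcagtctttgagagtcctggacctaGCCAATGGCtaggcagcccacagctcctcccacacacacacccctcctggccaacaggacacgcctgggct
They are chr14:57104703-57104952 for Gjb2, chr14:57133612-57133861 for Gjb6 and chr4:127358165-127358414 for Gjb5, all on the minus strand.

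Gjb2 held GC boxes 211 and 126 bases before the start and an AP-2 match at 124 that shares letters with the second GC box. Its window had 69.2% G and C. Gjb5 held a TATA box at 243, far from the start, and an AP-2 match at 71, in a window of 54.4% G and C. Gjb6 (56.8%) held none of the 4 motifs. No motif searched was present in all 3 windows, although all 3 genes were at least 2-fold higher in skin under every alternative run.

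Position and direction were then set side by side for 6 groups of members that are neighbours on a chromosome, which hold 14 genes. On chromosome 14, Gjb2 and Gjb6 differed by 5.20 and 3.80, while Gja3 differed by -0.36. The boundary between the skin-high genes and their neighbour was there that between beta and alpha members. Cldn17 and Cldn8, neighbours on chromosome 16, went opposite ways, with Cldn17 well above background in tooth only and Cldn8 at 1.54 toward skin. Cldn6 and Cldn9 on chromosome 17 and Cldn22 and Cldn24 on chromosome 8 were pairs in which 1 gene was measured in tooth only while its neighbour was within 2-fold or on neither array. Neighbouring genes share sequence as well as position, and no test was made of either.

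**Figure D4:**
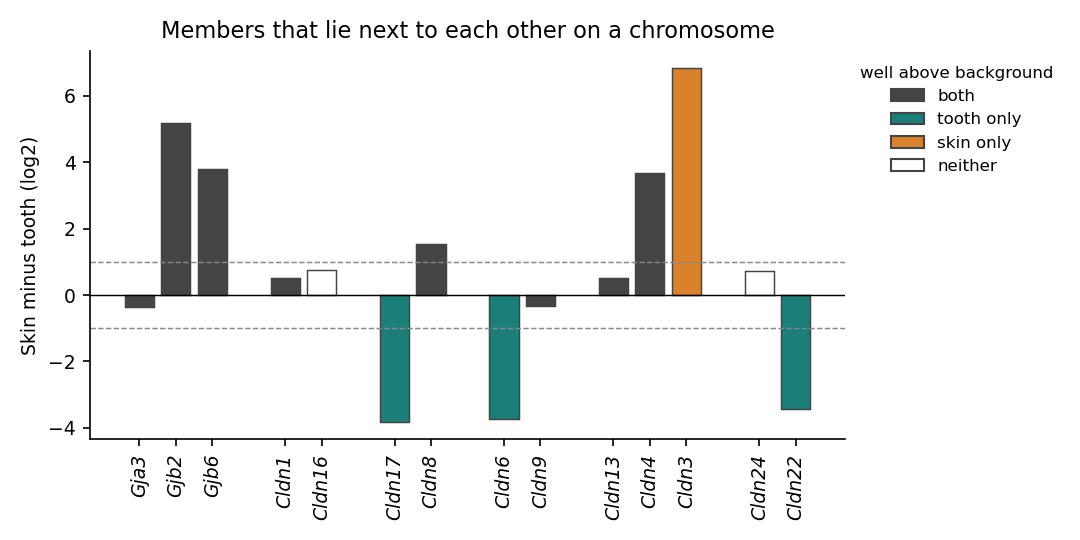
Difference between skin and tooth (log2, bars from 0) for 14 members that lie next to each other on a chromosome, in 6 groups and in their order along it, with colour for the arrays on which each was well above background. Dashed lines mark 2-fold, coloured and white bars rest on a value not well above background, and the beta connexins Gjb2 and Gjb6 rise above their alpha neighbour Gja3.

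The proteins that work with claudins at the tight junction were described next, from a list of 28 genes, each measured well above background in tooth, skin or both. Of these, 8 passed 2-fold toward skin, 2 passed it toward tooth and 18 were within it, beside the 14.2% and 15.5% over all genes. Their median was 0.47, compared with -0.04 over all genes. Leading toward skin were Tjp3, a scaffold protein (-1.15 in tooth and 3.25 in skin, difference 4.41), and cingulin (Cgn), which links the junction to the cytoskeleton (-2.05 and 2.30, difference 4.36). Occludin (Ocln), a strand protein like the claudins, differed by 1.47, and the polarity gene Crb3 by 1.67. Ildr2 (1.51), Ybx3 (1.17) and Pard3 (1.07) were also higher in skin, and Pard6b was well above background in skin only, by at least 2.97-fold. The adhesion molecules Jam2 and Jam3 were higher in tooth (-2.15 and -2.09). Tjp1, a main scaffold of the claudins, differed by -0.58. Tjp3 and Cgn therefore had the direction of Cldn3 and Cldn4, while Tjp1 did not.

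The list of gap junction partners had 8 genes, 7 of them measured in either tissue. Panx3, a pannexin of bone and odontoblasts, was at 1.89 in tooth and -3.47 in skin, a 41.0-fold higher level in tooth. Panx1 differed by -0.63, and Panx2 was near background on both arrays. Caveolin 1 (Cav1) was 5.20-fold higher in skin, and Ccn3, a matricellular protein that binds Gja1, was well above background in skin only, by at least 22.1-fold. Odontoblast and osteoblast markers, which had the same direction as Panx3, had summed levels of 8.46 in tooth and -0.56 in skin. The median of the 7 genes was 0.55. Tjp1, which binds connexins as well, belongs to both lists.

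In the reported values 25 of the 36 measured members were at least 2-fold apart, 11 toward skin and 14 toward tooth. The shares over all named genes measured in either tissue were 14.2% and 15.5%. Of the 25 members, 16 stayed at least 2-fold apart in the same direction in each of the 9 processing alternatives that gave a value. The share of all genes that stayed so was not counted. Several alternatives could not change some values by construction. For a gene with 1 probe measured on both arrays, the changes of filter, the bound for dim values and the mean over probes leave its difference as reported. The 16 members that stayed at least 2-fold apart included Gjb2, Gjb5, Gjb6, Gjd3, Cldn3, Cldn4 and Cldn23 toward skin. Toward tooth they included Gja1, Gjc1, Cldn5, Cldn10, Cldn11, Cldn17 and Cldn20. Of the 11 members within 2-fold, 10 changed sign under at least 1 alternative and have no order between the tissues.

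**Figure D5:**
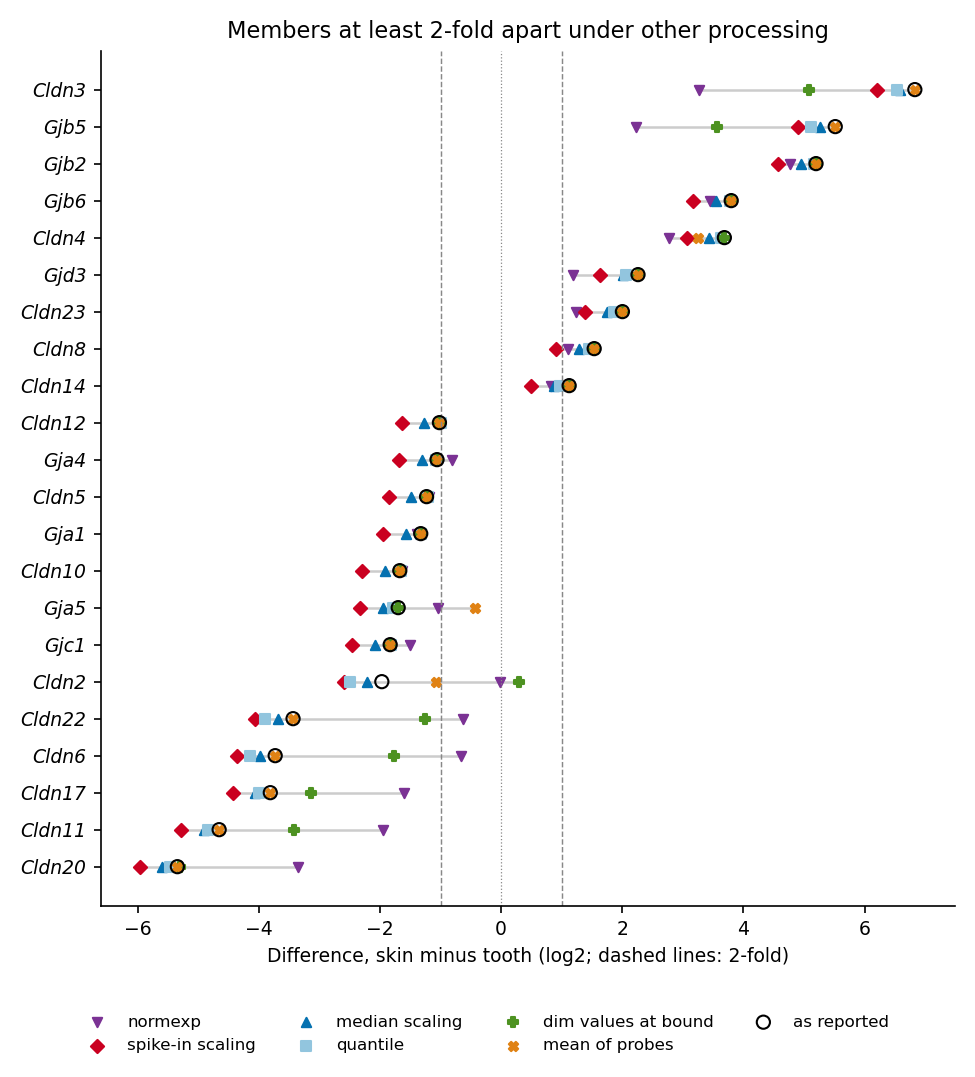
Difference between skin and tooth (log2) of 22 members at least 2-fold apart, as reported (open circles) and under 6 of the processing alternatives (coloured symbols). Dashed lines mark 2-fold, and Cldn2, Gja5, Cldn6 and Cldn22 are among the genes with alternatives inside these lines while Gjb2, Gjb6 and Cldn4 stay far outside them.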

How the data were processed

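Total RNA of P0 WT tooth and skin was hybridised to Agilent mouse arrays, 1 per tissue. The labels state P0, whereas the study's methods state P1. The deposited scanner output held intensity values from Agilent Feature Extraction (version 10.7.3.1), with background subtracted, trends within the array removed and very dim values replaced by surrogates, and per the file headers a signal column gave those surrogates. The authors also deposited a ratio per spot, the intensity divided by a single factor (430.7, tooth; 274.5, skin), and their methods name GeneSpring, removal of very low signals and a percentile shift.

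Outlier spots were left out, spots of a probe were averaged on the log2 scale, and the array's 75th percentile was subtracted. The probe with the highest mean stood for a gene. A probe was well above background when the software called more than 50% of its spots so. Where only 1 array passed, the fold is a bound, set against the dim array's lowest well-above level or the probe's own if higher. Members were to be named throughout, though a few genes are not reported here individually, neither in the text nor in the figures, while counts and medians include them, and partners and markers only if 2-fold apart or of a complex described. The members and gene lists were chosen with earlier results of these data known. RefSeq (GRCm38.p6) matched 82.1% of 33182 named probes and gave names, gene order and promoters. Probe coordinates are mm9, and exon, intron or UTR was not analysed here. With 1 array per tissue no test was run, and the array number limits the precision. Among probes with at least 8 spots the median SD was 0.08 (tooth) and 0.09 (skin). Python 3.11.15, pandas 2.3.3, numpy 2.4.6, R 4.3.3 and limma 3.58.1 (normexp, offset 50) were used, and the calculation was tested on simulated data. Alternatives were normexp, median, quantile and spike-in scaling, no filter on dim probes, genes measured on both arrays only, dim values at their bound, the mean over probes and the authors' ratio table.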

Additional observations from a re-analysis of the deposited data

How the results depend on the processing

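Leaving out a replicate was not possible with 1 array per tissue. No paired analysis was possible because the groups share only 1 replicate number and no test was run. Changes below are from medians (log2, skin minus tooth) and counts of genes at least 2-fold apart, and their causes were not tested unless the setting's own construction shows them.

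The claudin median of -0.48 became 0.10 under normexp correction, -0.73 under median scaling, -0.73 under quantile normalization, -1.11 under spike-in scaling, 0.32 with no filter on dim probes, 0.43 with genes measured on both arrays only and 0.10 with dim values at their bound. The connexin median of -0.04 became 0.25, -0.29, -0.23, -0.67 and 0.55 under the first 5 of these in that order, 0.13 with dim values at their bound and 0.093 with the mean over probes. The median of the tight junction partners (0.47) became 0.23 under median scaling and -0.15 under spike-in scaling. That of the gap junction partners (0.55) became 0.30 and -0.073 under these, 0.70 with no filter and -0.014 with genes measured on both arrays only. Spike-in scaling lowered the median of all genes by 0.62, and median scaling by 0.25, so that shifts of this size are those of the scaling itself.

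Spike-in scaling left 3 claudins at least 2-fold higher in skin (5 as reported), and gave 4 tight junction partners in skin (8) and 6 in tooth (2), and 3 gap junction partners in tooth (1). Over all genes it gave 9.04% in skin and 32.4% in tooth. Normexp correction left 3 connexins in tooth (5) and 5 tight junction partners in skin (8). Restriction to both arrays left 3 claudins in tooth (9), since 7 claudins were well above background in tooth only, and 1 gap junction partner in skin (2). The other counts were within 1.5 times. Among single genes, Cldn2 reversed to 0.29 with dim values at their bound, 13 values fell below 2-fold and 6 rose above it. The other 292 stayed on the same side of the 2-fold threshold. They include changes of sign within 2-fold and values that an alternative could not change. Among the 9 members not well above background on either array, 5 were not significantly above it by the lenient call either, and these differed by 0.69 to 0.77, so that differences of this size arise at background. Normexp correction gave differences smaller than the stated bound for Cldn3, Gjb5, Cldn20, Cldn11, Cldn17, Cldn6 and Cldn22. For Gja10, with a bound toward tooth, it gave 0.25 toward skin. These bounds therefore hold for the software's background subtraction only.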
